A study of Saccharomyces cerevisiae with 15 samples.

Results

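The transcript changes that follow loss of Thp1 were set against those that follow loss of Sac3, gene by gene, in Saccharomyces cerevisiae. The quantity compared was the thp1∆ response, log2 of thp1∆ over its wild type BY4742, minus the sac3∆ response, log2 of sac3∆ over its wild type BY4741. It is positive where a transcript was higher after loss of Thp1 than after loss of Sac3, each relative to its own wild type, and negative where it was lower. All genes measured outside chromosome XVI were included, which are those whose locus name does not start with YPL or YPR. That gave 5025 of the 5449 genes on the array, and 3986 of them passed the filter on low values. THP1 and SAC3 themselves differ by construction and were left out of the counts, which therefore cover 3984 genes.

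Thp1 and Sac3 are subunits of TREX-2, also called THSC, a complex at the inner face of the nuclear pore that couples transcription with mRNA export. Sac3 is the scaffold on which Thp1, Sem1, Sus1 and Cdc31 assemble, and Thp1 binds it through a PCI domain shared with subunits of the proteasome lid. Sus1 is also a subunit of the deubiquitinase module of SAGA, a histone-modifying coactivator. As the 2 proteins bind each other, the comparison asks which transcripts distinguish the loss of one from the loss of the other.

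Total RNA came from cells grown to mid-log phase in rich medium (YPD), with 3 biological replicates per strain and 12 arrays in the comparison. BY4741 carries his3∆1, leu2∆0, met15∆0 and ura3∆0, and sac3∆ (strain Y03517) has in addition sac3::KanMX. BY4742 carries his3∆1, leu2∆0, lys2∆0 and ura3∆0, and thp1∆ (strain Y11764) has in addition thp1::KanMX. Each mutant is 1 strain, so an effect of a deletion and of any other change in that strain cannot be told apart. The label of every strain gives MATa. By expression, BY4742 and thp1∆ were of the other mating type, α. STE3, the receptor for a-factor, read 6941 ± 326 units in BY4742 and 8574 ± 1007 in thp1∆ against 410 ± 134 in BY4741 and 186 ± 43.9 in sac3∆ (SD, n = 3). HMRA1, which encodes the a1 protein, read 12.4 ± 1.70 and 7.53 ± 1.14 units in BY4742 and thp1∆ against 1693 ± 316 (n = 2) and 1296 ± 210 in BY4741 and sac3∆. Each response was thus measured within 1 mating type and 1 set of markers, and the mutation compared cannot be told apart from the background it was made in.

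SAC3 read 15.9 ± 0.788 units in sac3∆ and THP1 read 16.1 ± 3.34 in thp1∆ (SD, n = 3), against group means of 1243 to 1851 units for both genes in the strains that carry them. The spread between arrays differed by strain. Replicate arrays correlated across genes with a Spearman's rho of 0.996 to 0.997 in BY4742, 0.987 to 0.992 in thp1∆, 0.958 to 0.992 in sac3∆ and 0.948 to 0.959 in BY4741. BY4741 replicate 3 had 14.6% of its values empty, marked as outliers in the deposited table. SRB4 is one of the control genes with probe sets at both transcript ends, and its 3′ signal over its 5′ signal, which reflects RNA or cDNA length, was 4.09 to 4.97 in BY4742, 6.40 to 6.71 in BY4741, 8.84 to 13.5 in sac3∆ and 10.2 to 18.8 in thp1∆. It was higher in each mutant than in either wild type. The same ratio overlapped for the control gene ACT1, at 1.13 to 1.28 in the wild types and 1.21 to 1.45 in the mutants. For SPT15, another control, the overlap was slight, at 1.31 to 1.591 and 1.588 to 2.02. BY4741 replicate 3 had no ratio for either. The part of these ratios in the results was not tested.

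For most transcripts no difference between the 2 responses was called, and a minority differed. The difference of responses was called at an adjusted p below 0.05 (limma, Benjamini-Hochberg) and a fold of at least 1.5. It was called higher after loss of Thp1 for 95 of the 3984 genes (2.38%) and lower for 148 (3.71%), together 6.1%. Of the 148 lower genes, 46 encoded ribosome biogenesis factors, which is 34.3% of the 134 tested. Another 8 belonged to purine synthesis, salvage and the folate pathway (26.7% of 30 tested). Of the 95 higher genes, 10 belonged to the pheromone response (47.6% of 21 tested). Targets of the drug resistance regulators Pdr1 and Pdr3 made up 8 (61.5% of 13 tested). This last list was drawn up after the values of PDR15 and PDR5 had been seen, so its share is a description. An unadjusted p below 0.05 was reached by 1398 genes, and the median difference over all genes was 0.01 on the log2 scale.

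The thp1∆ response was the wider profile. Its SD across genes was 0.473 on the log2 scale against 0.361 for sac3∆, and it was called for 428 genes up (10.7%) and 277 down (6.95%) against 249 up (6.25%) and 144 down (3.61%) in sac3∆. This split turned with the scaling: with the medians of all arrays set equal, which shifted the median gene by −0.12 in each response, 290 genes were called up and 464 down in thp1∆, and 166 up and 250 down in sac3∆. As deposited, genes called up in both mutants numbered 166, which is 38.8% of those of thp1∆ and 66.7% of those of sac3∆. Genes called down in both numbered 84, which is 30.3% and 58.3%. Across the 3984 genes the responses had a Pearson's r of 0.693 and a Spearman's rho of 0.662. The genes are points of the same 12 arrays and not independent replicates, and the responses share no array. For 2654 genes (66.6%) the whole 95% confidence interval of the difference lay within 1.5-fold in either direction. The median standard error of the difference was 0.122.

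**Figure D1:**
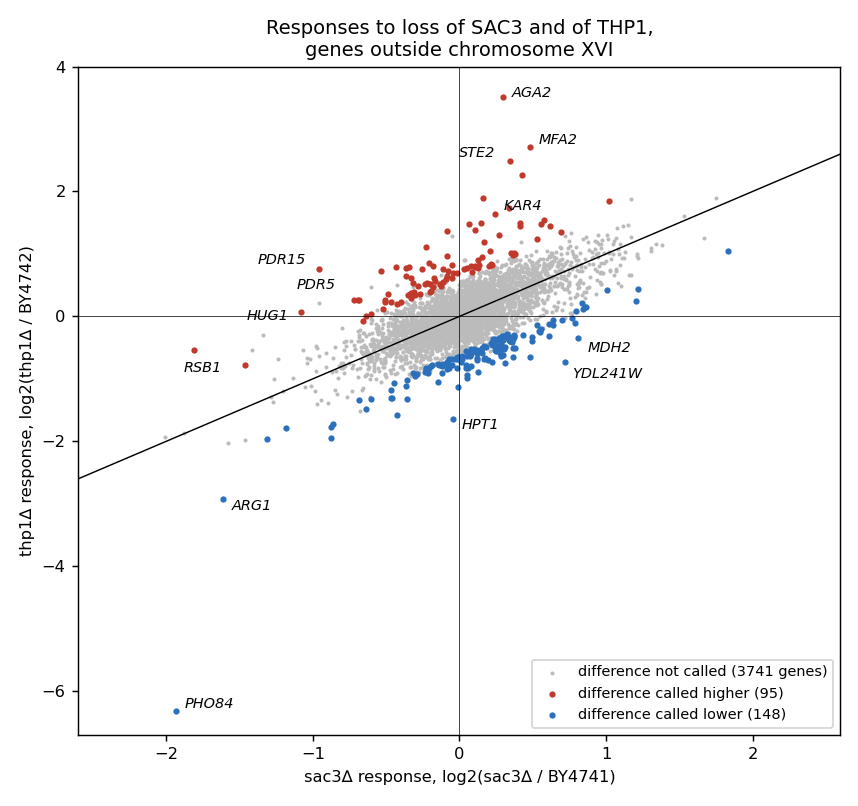
The log2 response to loss of THP1 (vertical axis) is plotted against the log2 response to loss of SAC3 (horizontal axis) for the 3984 genes tested outside chromosome XVI. The diagonal marks equal responses, red points are the 95 genes called higher and blue points the 148 called lower in the difference, and most grey points follow the diagonal.

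The called differences came from several combinations of responses. Of the 95 higher genes, 56 were called up in thp1∆ with no call in sac3∆, 8 were called down in sac3∆ with no call in thp1∆, 3 were called up in both and 1, BAT2, was called down in both. Of the 148 lower genes, 68 were called down in thp1∆ alone, 16 were called up in sac3∆ alone, 10 were called down in both and 1 was called up in both. For 26 higher and 52 lower genes neither response alone was called. Only PDR15 and YDL241W were called in opposite directions.

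Since the comparison joins 4 strains, a difference can lie between the mutants or between the wild types. The wild types were called different from each other at 46 genes (1.15%), among them 12 of the 95 higher and 13 of the 148 lower genes. The wild-type difference was larger than the mutant difference for 22 of the higher and 26 of the lower genes. The a-specific mating genes and PHO84 were the far points of this kind. A direct comparison of thp1∆ with sac3∆ was called in the matching direction for 41 higher and 50 lower genes, where 2.01% and 1.83% of all genes were called. The genes were chosen on a difference that contains this comparison. Their excess over all genes is thus partly built in, and the counts are a description.

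**Figure D2:**
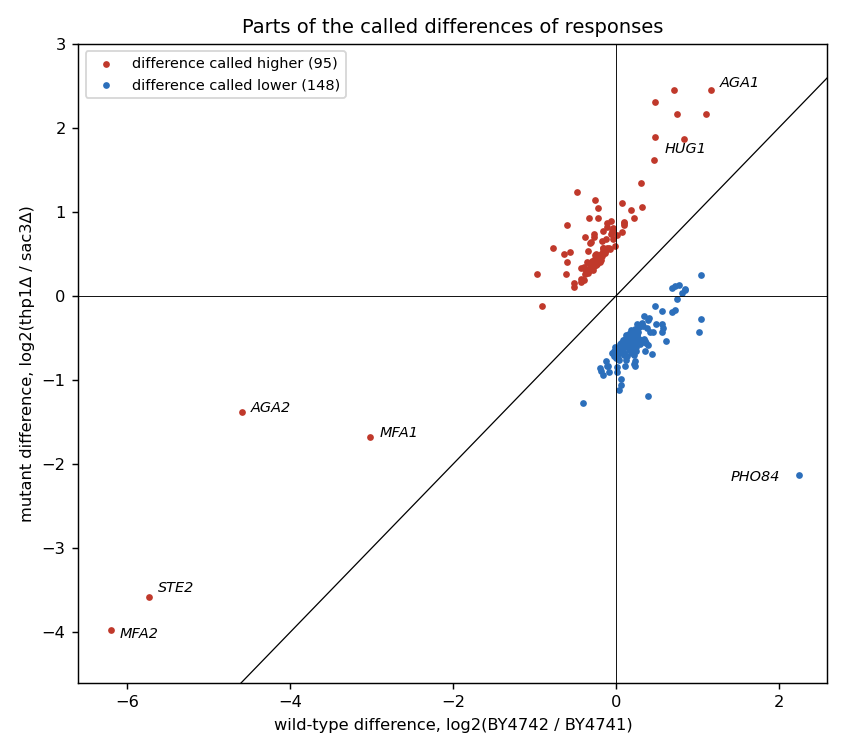
For each of the 95 higher (red) and 148 lower (blue) genes, the log2 difference between the mutants (thp1∆ over sac3∆, vertical axis) is plotted against the log2 difference between the wild types (BY4742 over BY4741, horizontal axis). The difference of responses is the vertical distance from the diagonal, and STE2, MFA2, AGA2 and MFA1 lie far to the left because BY4741 expresses these a-specific genes at a higher level than BY4742.

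The called genes were spread over the chromosomes. Median differences of the 15 chromosomes lay between −0.02 (chromosome VIII, 194 genes) and 0.10 (chromosome VI, 87 genes, 4 higher and 0 lower). Chromosome XVI, which was left out here, had a median difference of 0.35 over 343 tested genes, with a median response of 0.86 in thp1∆ and 0.51 in sac3∆. Median coding length was 1458 bases for the higher genes, 1095 for the lower ones and 1272 for all. Spearman's rho of the difference with coding length was 0.155 and with the mean level −0.01, as a description across 3984 genes.

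Ribosome biogenesis factors had lower transcript levels after loss of Thp1 than after loss of Sac3. These proteins process and fold the ribosomal RNA precursor in the nucleolus and carry the subunits to the cytoplasm. Of 134 tested factors, 46 were called lower and none higher, and 133 lay below 0. Their median difference was −0.53 against 0.01 for all genes. The median response was −0.25 in thp1∆ (6 called up, 21 down) and 0.28 in sac3∆ (27 up, none down). The 21 down calls are 15.7% of the list against 6.95% of all genes, and the 27 up calls 20.1% against 6.25%. The 3 thp1∆ arrays gave list medians of −0.29, −0.21 and −0.29, and the 3 sac3∆ arrays gave 0.35, 0.40 and 0.07. Among the controls, BY4741 replicate 1 stood 0.22 above its strain's mean.

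RRS1, needed for assembly of the large subunit, had the largest difference on the list. It read 2883, 2868 and 2640 units in BY4742 and 1733, 1482 and 1344 in thp1∆. In BY4741 it read 2508, 2192 and 1863 units and in sac3∆ 2478, 2485 and 2162. All thp1∆ values lay below all BY4742 values, whereas sac3∆ and BY4741 overlapped. The difference was −1.01 ± 0.15 (SE, adjusted p = 0.00117). DHR2, an RNA helicase of the small subunit pathway, had thp1∆ values of 908 to 924 units under BY4742 values of 1341 to 1508, and sac3∆ values of 1409 to 1648 that overlapped with 937 to 1547 in BY4741. Its difference was −1.01 ± 0.19 (adjusted p = 0.00362). IPI3, a large subunit processing factor, differed by −0.94 ± 0.17 (adjusted p = 0.00324) and FAF1, a small subunit factor, by −0.92 ± 0.19 (adjusted p = 0.00501). In these 4 genes the thp1∆ response was called and the sac3∆ response was not, whereas the whole list had 27 genes called up in sac3∆. Without BY4741 replicate 1 the number of lower factors was 82, without sac3∆ replicate 3 it was 87, and 23 of the 46 were called in each of the 12 fits without 1 array.

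The polymerases that make the ribosomal and transfer RNAs followed in part. Of 31 tested subunits and factors of RNA polymerases I and III, 6 were called lower (19.4% against 3.71% of all genes) and none higher. Their median difference was −0.29. RPA43, the polymerase I stalk subunit that meets the initiation factor Rrn3, read 2751, 2840 and 2884 units in BY4742 and 1915, 1775 and 1592 in thp1∆. It read 2779, 2121 and 2333 in BY4741 and 2577, 2505 and 2208 in sac3∆. Only the thp1∆ arrays stood apart, and the difference was −0.70 ± 0.14 (adjusted p = 0.00382). RPA49, another polymerase I subunit, differed by −0.70 ± 0.13, RPC25 of polymerase III by −0.69 ± 0.17 and RPC37 of polymerase III by −0.64 ± 0.11. Without BY4741 replicate 1 the count was 10 and without BY4741 replicate 2 it was 2, and RPC25 (−0.54) and RPC37 (−0.56) fell below the fold without the latter array.

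The ribosomal proteins themselves differed little. Of 119 tested genes of cytosolic ribosomal proteins, 1 was called lower, RPS14B (−0.62 ± 0.12, adjusted p = 0.00401, but −0.53 to −0.58 and no call without BY4741 replicate 3, sac3∆ replicate 1 or thp1∆ replicate 2), and the median difference was −0.11. For 103 of the 119 the whole 95% interval lay within 1.5-fold. Mitochondrial ribosomal proteins had a median difference of 0.19 over 65 genes, tRNA synthetases one of −0.02 over 17 genes, and neither list held a called gene.

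**Figure D3:**
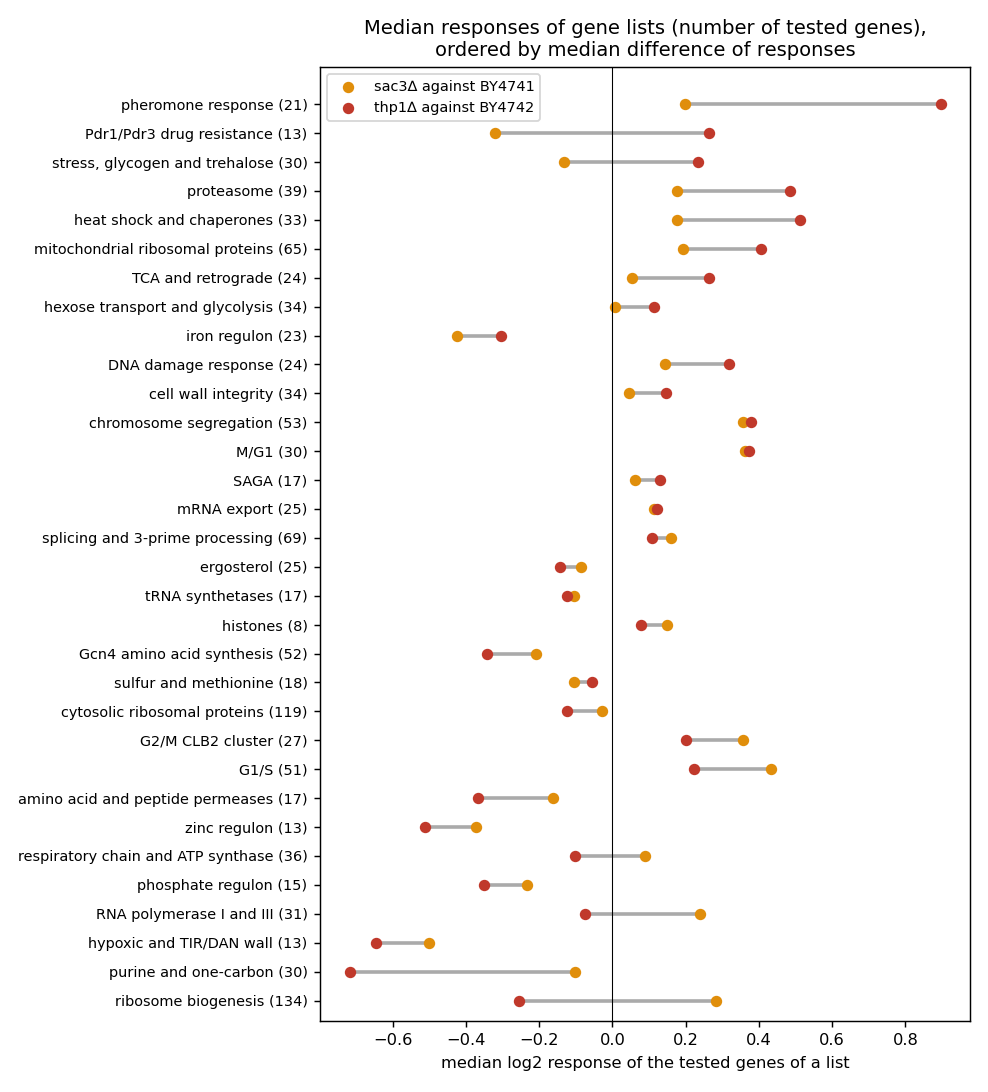
Each row is a gene list with its number of tested genes. The orange point is the median log2 response in sac3∆ against BY4741 and the red point the median in thp1∆ against BY4742, so the length of the grey bar separates the responses. Ribosome biogenesis and RNA polymerase I and III lie on opposite sides of 0 in the 2 mutants, while mRNA export and chromosome segregation nearly coincide.

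Genes of purine synthesis, salvage and the folate pathway that feeds it with carbon units were lower after loss of Thp1. Of 30 tested, 8 were called lower and none higher, with a median difference of −0.44. The thp1∆ response had a median of −0.72 (17 down, 1 up) and the sac3∆ response one of −0.10 (3 down, 1 up). The down calls are 56.7% and 10% of the list, against 6.95% and 3.61% of all genes. In the 3 thp1∆ arrays the median was −0.63, −0.70 and −0.86, and in the 3 sac3∆ arrays −0.12, −0.16 and −0.22, so that the strains did not overlap. Leaving out 1 array gave 5 to 10 lower genes, with the fewest without BY4742 replicate 3.

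HPT1, the hypoxanthine-guanine salvage enzyme, read 5050, 5006 and 4671 units in BY4742 and 1677, 1510 and 1551 in thp1∆. It read 4103, 4102 and 3067 in BY4741 and 3723, 4295 and 2934 in sac3∆. Thus thp1∆ held about 1 in 3 parts of its wild type's level, and sac3∆ covered the same range as BY4741. The difference was −1.59 ± 0.18 (adjusted p = 0.000177), the second largest of the lower genes. ADE17, which makes the purine ring's last closure to IMP, read 7061, 7085 and 7126 units in BY4742 against 2217, 1723 and 1627 in thp1∆. It read 4414 and 8166 in BY4741, where replicate 3 was empty, and 3055, 3398 and 3361 in sac3∆. Both mutants were below their wild types, and the difference of −1.07 ± 0.27 (adjusted p = 0.0158) is one of degree. ADE4, the first committed enzyme of the pathway, differed by −0.99 ± 0.28 (adjusted p = 0.0225), and MTD1, a folate enzyme, by −1.15 ± 0.37 (adjusted p = 0.0374) with BY4741 values as far apart as 2105 and 5663. ADE4 lost its call without BY4742 replicate 3 (adjusted p = 0.0529), and MTD1 lost it when any 1 of 8 arrays was left out, every BY4742 array among them (adjusted p = 0.0598 to 0.0832). BAS1, the activator of these genes, was not called (−0.23 ± 0.16, adjusted p = 0.331).

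PHO84, the high-affinity phosphate transporter, had the largest difference of all lower genes. It read 8048, 7197 and 8040 units in BY4742 and 89.8, 100.2 and 100.6 in thp1∆. It read 2122, 1507 and 1340 in BY4741 and 544, 904 and 155 in sac3∆. Every mutant array lay below every array of its wild type, but the wild types were themselves 2.25 apart on the log2 scale and the sac3∆ arrays were widely scattered. The response was −6.32 in thp1∆ and −1.94 in sac3∆, and the difference −4.39 ± 0.63 (adjusted p = 0.000949). It was the only called member of 15 tested genes of the phosphate regulon (6.67% against 3.71% of all genes), but this count was unstable. It was 3 or 4 when any 1 array of thp1∆ or sac3∆ was left out, 2 without BY4741 replicate 1 or BY4742 replicate 2, and 5 with no filter on low values, all in the lower direction. PHO4, the activator of the regulon, differed by −0.22 ± 0.19 (adjusted p = 0.437). FUI1, the uridine permease, read 4665 to 5089 units in BY4742 and 2145 to 2310 in thp1∆, against overlapping values of 3922 to 5371 in BY4741 and 3550 to 5603 in sac3∆. Its difference was −1.13 ± 0.20 (adjusted p = 0.00252). Among 17 amino acid and peptide permeases, the S-methylmethionine permease MMP1, the broad amino acid permease AGP1 and the peptide transporter OPT1 were called lower. Their differences were −0.85, −0.69 and −0.60. The calls are 17.6% of the list against 3.71% of all genes. None of these calls was stable, since leaving out 1 array ended that of MMP1 for 6 choices of the array, that of AGP1 for 10 and that of OPT1 for 6, among them BY4742 replicate 1 and thp1∆ replicate 1 for each.

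Amino acid synthesis genes under the activator Gcn4 were called down for 12 of 52 tested members in thp1∆ and for 7 in sac3∆. These are 23.1% and 13.5%, against 6.95% and 3.61% of all genes. In each mutant 1 member was called up (1.92% against 10.7% and 6.25% of all genes). Of the 52, 4 were called lower in the difference (7.69%) and 2 higher (3.85%), against 3.71% and 2.38% of all genes, and the median difference was −0.10. The higher calls fell to 0 without sac3∆ replicate 2 or thp1∆ replicate 1. ARG1, argininosuccinate synthetase, read 3068, 3122 and 3276 units in BY4742 and 375, 327 and 579 in thp1∆. It read 1541, 1576 and 1481 in BY4741 and 448, 333 and 840 in sac3∆. The mutants overlapped each other (−0.27 on the log2 scale), the wild types did not (1.04), and the difference was −1.31 ± 0.37 (adjusted p = 0.0237). It missed the call without BY4742 replicate 3, thp1∆ replicate 1 or thp1∆ replicate 2 (adjusted p = 0.0522 to 0.0621). HIS4, an enzyme of histidine synthesis, read 6241, 6322 and 6260 units in BY4742 and 1825, 1750 and 1977 in thp1∆ against 4485, 5527 and 3818 in BY4741 and 2523, 2415 and 2504 in sac3∆. Neither mutant overlapped its wild type, and the difference was −0.89 ± 0.16 (adjusted p = 0.00277). LEU9, an isopropylmalate synthase, differed by −0.72 ± 0.10 (adjusted p = 0.00108). BAT2, the cytosolic branched-chain aminotransferase, ran the other way, with responses of −0.78 in thp1∆ and −1.46 in sac3∆ and a difference of 0.68 ± 0.19 (adjusted p = 0.0222). The BAT2 call was lost without sac3∆ replicate 2, thp1∆ replicate 1 or thp1∆ replicate 2 (0.54 to 0.62). Lower calls on the list fell to 2 without thp1∆ replicate 2. GCN4 itself differed by −0.07 ± 0.07 (adjusted p = 0.497).

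The study measured PLB2, HMS2 and ARG1 by RT-qPCR as well. On the arrays PLB2, a phospholipase, read 3680, 3286 and 3261 units in BY4742 and 843, 909 and 873 in thp1∆, against 3748 and 3625 in BY4741 and 1623, 1536 and 1319 in sac3∆. Both mutants were far below their wild types, and the fall was the deeper in thp1∆ (−1.96 against −1.31, difference −0.65 ± 0.11, adjusted p = 0.00316). HMS2, similar to heat shock transcription factors, had responses of −1.99 and −1.46. Its difference of −0.52 ± 0.10 (adjusted p = 0.00333) stayed under the fold required for a call, and reached it without BY4741 replicate 1 (−0.60).

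Genes of the pheromone response were higher after loss of Thp1. In this pathway pheromone on its receptor activates a MAP kinase cascade that releases the transcription factor Ste12, which switches on genes for cell cycle arrest, agglutination and fusion. Of 29 measured members outside chromosome XVI, 21 were tested, 10 were called higher (47.6% against 2.38% of all genes) and none lower. The median difference was 0.74, from a median response of 0.90 in thp1∆ (13 up, none down) and 0.20 in sac3∆ (3 up, 1 down). The up calls are 61.9% and 14.3% of the list, against 10.7% and 6.25% of all genes. The medians of the 3 thp1∆ arrays were 0.91, 0.91 and 0.79 and those of sac3∆ 0.28, 0.34 and 0.04. Of the 10 calls, 9 held in each of the 12 fits without 1 array.

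KAR4, a transcription factor induced by pheromone for nuclear fusion, read 819, 882 and 853 units in BY4742 and 3051, 2687 and 2294 in thp1∆. It read 681, 509 and 646 in BY4741 and 745, 724 and 683 in sac3∆. The 3 thp1∆ arrays stood far above all others, and the difference was 1.40 ± 0.16 (adjusted p = 0.000177). FUS1, a membrane protein of cell fusion, read 2431, 2069 and 1984 units in BY4742 and 5769, 6651 and 5544 in thp1∆, against 1384, 1175 and 1280 in BY4741 and 1480, 1853 and 864 in sac3∆. Again sac3∆ spanned the values of BY4741 and thp1∆ lay above BY4742, with a difference of 1.41 ± 0.29 (adjusted p = 0.00497). STE12 itself rose in thp1∆, from 1897, 2008 and 1954 units to 4120, 4392 and 3587, and its values in BY4741 (2450, 1872 and 2332) and sac3∆ (2706, 3014 and 2037) overlapped. The difference was 0.83 ± 0.19 (adjusted p = 0.00848).

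FAR1, the inhibitor that arrests the cycle in G1, and TEC1, the partner of Ste12 in filamentous growth, were called up in both mutants and more so in thp1∆. FAR1 had responses of 1.44 and 0.62 and a difference of 0.82 ± 0.22 (adjusted p = 0.0197), and TEC1 had 1.84 and 1.02 and a difference of 0.82 ± 0.19 (adjusted p = 0.0091). AGA1, the anchor of the agglutinins, differed by 1.28 ± 0.40 (adjusted p = 0.0339) and FIG2, a wall adhesin of mating cells, by 1.05 ± 0.19 (adjusted p = 0.00363). AGA1 lost its call without BY4741 replicate 1 or any array of BY4742 or thp1∆ (adjusted p = 0.0527 to 0.0703). AFR1, which shapes the mating projection, read 631 to 669 units in BY4742, 2125 to 2224 in thp1∆, 556 to 1215 in BY4741 and 947 to 995 in sac3∆. Its difference of 1.40 ± 0.27 (adjusted p = 0.00371) was among the 12 largest of the higher genes.

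The a-specific genes AGA2, MFA2 and STE2 passed the filter on low values only because their thp1∆ arrays read above 600 units, unlike those of BY4742. They are counted among the 95 higher genes and among the genes at which the wild types were called different. As the filter depended on the thp1∆ values, their levels are given here as a description and no test is cited. Genes of this class are repressed by the α2 protein in α cells, the mating type that BY4742 and thp1∆ showed by expression. AGA2, the a-agglutinin binding subunit, read 121.7, 90.9 and 92.2 units in BY4742 and 1333, 998 and 1156 in thp1∆, against 2716 and 2178 in BY4741 and 3203, 3635 and 2298 in sac3∆. MFA2, an a-factor gene, read 164, 145 and 161 units in BY4742 and 1112, 900.5 and 1062 in thp1∆, against 11536, 11156 and 11868 in BY4741 and 16180, 17134 and 14936 in sac3∆. In both genes the thp1∆ arrays lay above those of BY4742 and below those of the a strains. STE2, the α-factor receptor, read 196 ± 8.01 units in BY4742 and 1106 ± 109 in thp1∆ (SD, n = 3). MFA1, the other a-factor gene, was above 600 units on all 12 arrays and differed by 1.34 ± 0.21 (adjusted p = 0.00142). STE6 and BAR1, which did not pass, had differences of 0.99 and 1.53 with all genes included.

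The mating type markers STE3, SAG1 and HMRA1 stayed in place in thp1∆ beside these values, while other α markers gave no value there. HMLALPHA1, the α1 gene, read 1783 ± 97.0 units in BY4742 (SD, n = 3) and was empty on all 3 thp1∆ arrays. MF(ALPHA)1 and MF(ALPHA)2 were empty on every array of BY4742 and thp1∆. HMRA1, as given above, was at the array floor in thp1∆, and SAG1, the α-agglutinin, read 11483 ± 482 units in BY4742 and 17813 ± 622 in thp1∆ against 808 ± 63.8 in BY4741 and 996 ± 177 in sac3∆ (SD, n = 3). HMRA2 was also called higher (1.03 ± 0.21, adjusted p = 0.00549), but its sequence is shared with the α2 gene, and which copy gave the signal is uncertain.

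Ty3 retrotransposons, whose transcription is induced by pheromone, were higher as well. YGR109W-B, a Ty3 element, read 1107, 895 and 1009 units in BY4742 and 4708, 5394 and 4356 in thp1∆. It read 778, 730 and 649 in BY4741 and 1009, 1261 and 707 in sac3∆. The thp1∆ arrays stood above all others, and the difference was 1.84 ± 0.23 (adjusted p = 0.000387). The second element, YIL082W-A, differed by 1.75 ± 0.24 (adjusted p = 0.000819). The elements are near-identical copies, so their probe sets may read the same RNA and count as 1 observation.

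**Figure D4:**
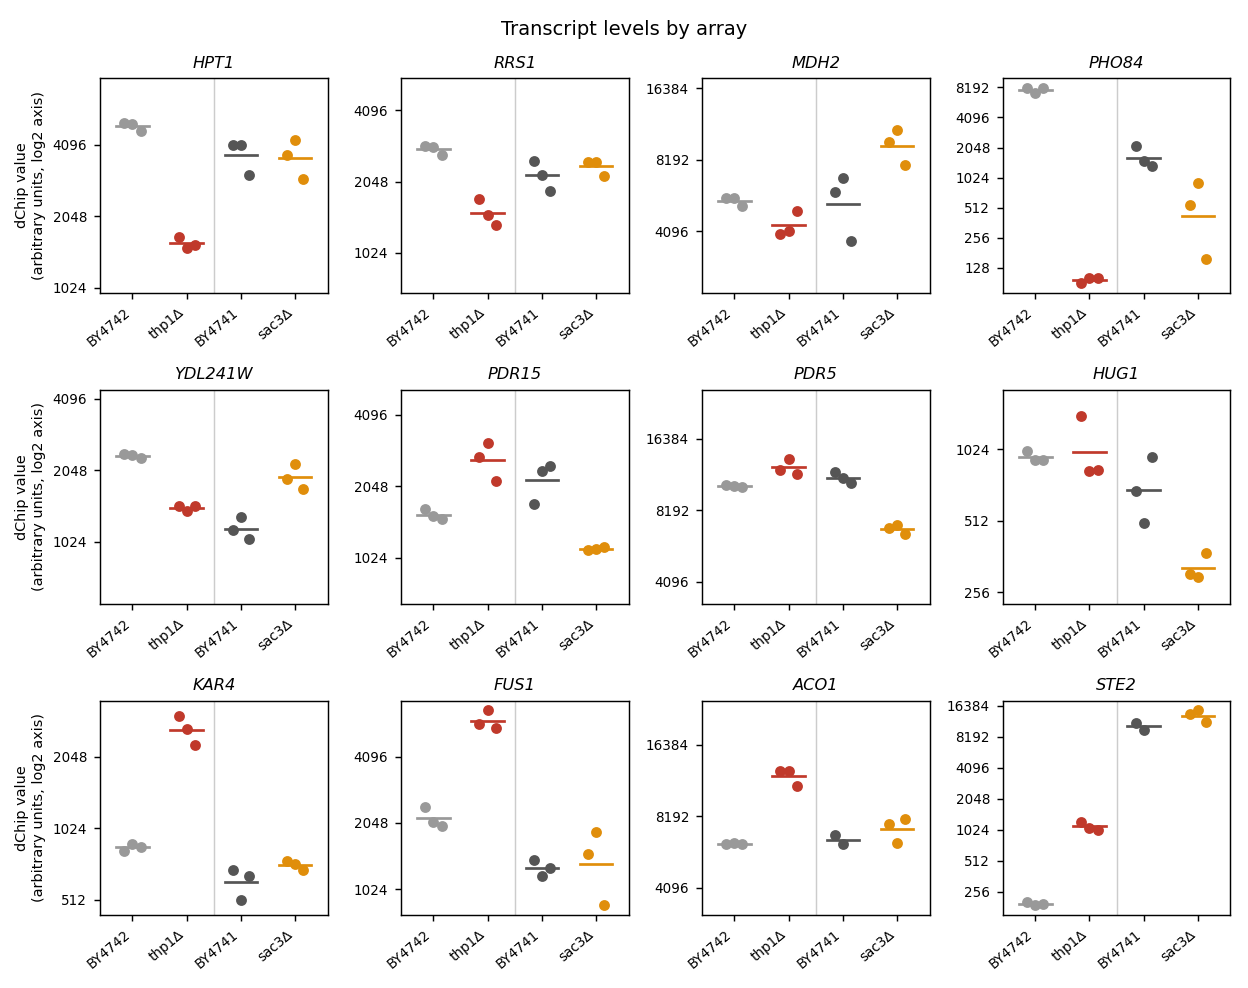
Deposited values of 12 genes are plotted on a log2 axis in arbitrary units, with 1 point per array and a bar at the geometric mean of a strain. In HPT1, RRS1, KAR4, FUS1 and ACO1 the thp1∆ arrays stand apart from BY4742 while sac3∆ overlaps or nearly meets BY4741, in PDR5 and HUG1 it is the sac3∆ arrays that stand apart, and PDR15 and YDL241W moved in opposite directions.

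Targets of Pdr1 and Pdr3, the zinc-cluster activators of multidrug resistance, had another pattern, with more calls in sac3∆ than in thp1∆. The list was drawn up after the values of PDR15 and PDR5 had been seen, so its counts are a description. Of 13 tested genes, 8 were called higher and none lower, all 13 lay above 0, and the median was 0.74. The median response was 0.26 in thp1∆ (3 up, none down) and −0.32 in sac3∆ (none up, 5 down). Up calls in thp1∆ are 23.1% and down calls in sac3∆ 38.5%, against 10.7% and 3.61% of all genes. By array the median response was 0.23, 0.46 and 0.26 in thp1∆ and −0.31, −0.39 and −0.25 in sac3∆.

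PDR5, the main drug efflux pump of the plasma membrane, read 10459, 10330 and 10288 units in BY4742 and 12131, 13445 and 11656 in thp1∆. It read 11801, 11168 and 10638 in BY4741 and 6887, 7068 and 6467 in sac3∆. The sac3∆ arrays were the lowest of the 12 and the thp1∆ arrays stood above BY4742 by less than 1.5-fold. The difference was 0.98 ± 0.09 (adjusted p = 2.02e-05). PDR15, a pump close to Pdr5 in sequence, read 1648, 1533 and 1485 units in BY4742 and 2710, 3111 and 2158 in thp1∆, against 1715, 2383 and 2483 in BY4741 and 1098, 1114 and 1135 in sac3∆. It was called up in thp1∆ (0.76) and down in sac3∆ (−0.96), with no overlap of either mutant with its wild type. The difference was 1.72 ± 0.19 (adjusted p = 0.000141).

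RSB1, a transporter of sphingoid bases, read 315, 386 and 267 units in sac3∆ against 830, 1518 and 1109 in BY4741, and 706, 733 and 438 in thp1∆ against 958, 872 and 836 in BY4742. Neither mutant overlapped its wild type, only the sac3∆ response was called (−1.81), and the difference was 1.27 ± 0.30 (adjusted p = 0.0105). The vacuolar pump VMR1 differed by 0.95 ± 0.25, the oligomycin pump YOR1 by 0.94 ± 0.14, PDR3 by 0.85 ± 0.17, the acyltransferase ICT1 by 0.74 ± 0.16 and the pump SNQ2 by 0.61 ± 0.14. PDR1 (0.43 ± 0.09) and PDR16 (0.38 ± 0.12) had an adjusted p below the threshold without the fold, and PDR10, TPO1 and IPT1 lay between 0.07 and 0.16 with neither. YGR035C, a gene of unknown function, had a thp1∆ response of 1.36, a sac3∆ response of −0.08 and a difference of 1.45 ± 0.27 (adjusted p = 0.00333).

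HUG1 and RNR3 resembled the drug pumps in that sac3∆ was low. HUG1 encodes a small inhibitor of ribonucleotide reductase and RNR3 a damage-induced subunit of that enzyme. HUG1 read 1010, 921 and 923 units in BY4742 and 1415, 831 and 836 in thp1∆, against 682, 502 and 947 in BY4741 and 307, 295 and 376 in sac3∆. The thp1∆ values surrounded those of BY4742 and the sac3∆ values were all below BY4741, with a difference of 1.15 ± 0.31 (adjusted p = 0.0196). RNR3 read 761, 812 and 782 units in BY4742 and 1069, 906 and 808 in thp1∆, and 638, 673 and 710 in BY4741 and 500.2, 485 and 472 in sac3∆. Its difference was 0.70 ± 0.15 (adjusted p = 0.00628). Of 24 tested genes of the DNA damage response, 4 were called higher (16.7% against 2.38% of all genes). The G1/S factor TOS4 was the 1 called lower (−0.81 ± 0.19, adjusted p = 0.0100), which is 4.17% against 3.71%. The list's median was 0.11. Without BY4741 replicate 3 the higher calls were 2, and without BY4741 replicate 2 TOS4 fell below the fold (−0.46).

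Some heat shock genes and no proteasome gene passed the call on the difference. Of 33 tested heat shock genes, 13 were called up in thp1∆ and 5 in sac3∆, where 10.7% and 6.25% of all genes were. In the difference 4 were called higher (12.1% against 2.38% of all genes). The median difference was 0.28. SIS1, the Hsp40 that feeds Hsp70, read 5898, 5678 and 5920 units in BY4742 and 10458, 10254 and 10044 in thp1∆, against 5007, 5823 and 6901 in BY4741 and 6695, 6304 and 7302 in sac3∆. The thp1∆ arrays were the 3 highest, and the difference was 0.61 ± 0.13 (adjusted p = 0.00605). STI1, the co-chaperone between Hsp70 and Hsp90, differed by 0.72 ± 0.19, the Hsp70 SSA1 by 0.68 ± 0.19 and polyubiquitin UBI4 by 0.66 ± 0.17. None of the 4 calls held in each of the 12 fits without 1 array. The list had 1 called gene without BY4741 replicate 3, 2 without sac3∆ replicate 2 and 7 without sac3∆ replicate 3. HSF1, which activates these genes, was called up in each mutant (1.10 and 0.69), with a difference of 0.42 ± 0.11 (adjusted p = 0.0186) below the fold.

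Of 39 tested proteasome genes, 37 had a difference above 0, none was called, and the median was 0.30. Without BY4741 replicate 1 or sac3∆ replicate 3, 2 were called higher. The thp1∆ response was called up for 12 of the 39 (30.8%) and the sac3∆ response for 1 (2.56%). Of all genes, 10.7% and 6.25% were. For 30 of the 39 the 95% interval lay within 1.5-fold. RPN4, their activator, had responses of 1.27 and 0.87 and a difference of 0.40 ± 0.18 (adjusted p = 0.119).

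Genes of the citrate cycle were called in both directions. Of 24 tested genes of the cycle and of retrograde signalling, 5 were called higher (20.8%) and 2 lower (8.33%), against 2.38% and 3.71% of all genes. Of these 7 calls, 5 held in each fit without 1 array. ACO1, aconitase, read 6257, 6329 and 6275 units in BY4742 and 12674, 12684 and 11026 in thp1∆, against 6818 and 6236 in BY4741 and 7578, 6314 and 8010 in sac3∆. Only the thp1∆ arrays stood apart from their wild type, and the difference was 0.79 ± 0.13 (adjusted p = 0.0021). IDH2, a subunit of isocitrate dehydrogenase, differed by 0.81 ± 0.14 (adjusted p = 0.00265) and PYC1, a pyruvate carboxylase, by 1.01 ± 0.20 (adjusted p = 0.00517).

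MDH2, the cytosolic malate dehydrogenase of gluconeogenesis, went the other way. It read 5644, 5654 and 5245 units in BY4742 and 3997, 4108 and 4977 in thp1∆, against 5997, 6869 and 3722 in BY4741 and 9770, 10911 and 7781 in sac3∆. Here sac3∆ was the high strain and the only one with a call (0.81), and the difference was −1.16 ± 0.26 (adjusted p = 0.00784). Among 36 genes of the respiratory chain and ATP synthase, ATP19 (−0.89 ± 0.16), RIP1 (−0.67 ± 0.18) and ATP17 (−0.62 ± 0.08) were called lower and none higher. The lower calls are 8.33% of the list against 3.71% of all genes. For ATP19 the wild types were called different (0.69), while the mutants overlapped each other (−0.19). RIP1 fell below the fold without BY4741 replicate 1 (−0.53) or thp1∆ replicate 3 (−0.56) and ATP17 without BY4741 replicate 3 (−0.57). INH1, the inhibitor of ATP synthase, differed by −1.05 ± 0.25 (adjusted p = 0.0105) and PET117, an assembly factor of cytochrome oxidase, by 1.34 ± 0.18 (adjusted p = 0.000714). For PET117 the wild types were called different (−0.77), and the mutants stayed below the fold (0.57).

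Genes of the general stress response and of glycogen and trehalose gave an uncertain count. Of 30 tested, 3 were called higher (10% against 2.38% of all genes) and none lower. The median difference was 0.45, with 28 genes above 0. BY4741 replicate 1 lay 0.51 below its strain's mean on this list and replicate 2 lay 0.33 above it. Without replicate 1 the count was 15 and the median 0.71, without sac3∆ replicate 3 the count was 6, and without any other array it was 1. TPS1, trehalose phosphate synthase, was called with every array (0.71 ± 0.19, adjusted p = 0.0171), also in each fit without 1 array. DDR2 (0.87 ± 0.30, adjusted p = 0.049) and the hexokinase HXK1 (1.09 ± 0.36, adjusted p = 0.0411) were not. The activators MSN2 (0.08 ± 0.12) and MSN4 (−0.11 ± 0.21) were not called.

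**Figure D5:**
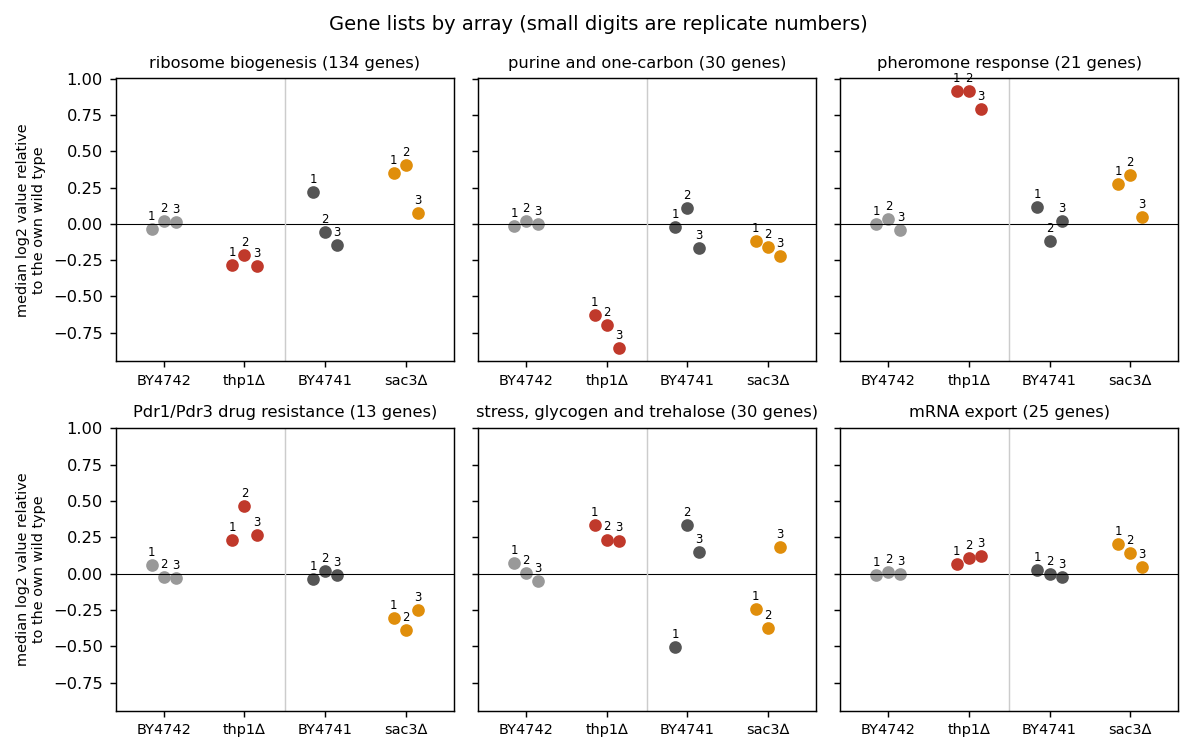
The median log2 value of 6 gene lists relative to the mean of the strain's own wild type is plotted for each of the 12 arrays, with the replicate number as a small digit. The thp1∆ and sac3∆ arrays are fully apart for purine, pheromone and Pdr1/Pdr3 genes and for ribosome biogenesis, where sac3∆ replicate 3 is the nearest at 0.07, whereas BY4741 replicate 1 at −0.51 and sac3∆ replicate 3 at 0.18 scatter widely on the stress list.

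Cell cycle genes showed small differences around shared responses. Of 51 tested G1/S genes, 12 (23.5%) were called up in thp1∆ and 14 (27.5%) in sac3∆, where 10.7% and 6.25% of all genes were. In the difference 4 were called lower (7.84% against 3.71% of all genes), with a median of −0.13. Without BY4741 replicate 1 there were 9. CLB6, a cyclin of S phase, read 823, 802 and 750 units in BY4742 and 566, 687 and 656 in thp1∆, against 744, 454 and 682 in BY4741 and 904, 1037 and 870 in sac3∆. The mutants left their wild types on opposite sides, and the difference was −0.93 ± 0.20 (adjusted p = 0.0073). CLN3, the cyclin upstream of Start, differed by −0.77 ± 0.15 (adjusted p = 0.00448) and the checkpoint mediator MRC1 by −0.79 ± 0.16 (adjusted p = 0.0056). For MRC1 the difference lay between the wild types, which were called different (0.76), while the mutants overlapped each other (−0.04). SWI4, the DNA-binding subunit of the G1 factor SBF, was called up alike in both (1.01 and 0.99), with a difference of 0.02 ± 0.17. CLB1, a mitotic cyclin, was the only called gene of 27 in the G2/M cluster (−0.71 ± 0.13, adjusted p = 0.00305). That is 3.7% against 3.71% of all genes, and 2 of the cluster were called without BY4741 replicate 1.

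YDL241W, a gene of unknown function, was called down in thp1∆ and up in sac3∆. It read 2386, 2365 and 2307 units in BY4742 and 1442, 1381 and 1443 in thp1∆, against 1150, 1298 and 1051 in BY4741 and 1875, 2180 and 1710 in sac3∆. Neither mutant overlapped its wild type, and the difference was −1.44 ± 0.13 (adjusted p = 2.02e-05). The wild types differed by 1.02 on the log2 scale, with BY4742 the higher, so that the mutants were closer to each other than their wild types were. TIR3, a wall mannoprotein induced by cold and low oxygen, fell in thp1∆ from 1395, 1316 and 1315 to 695, 666 and 677 units, while BY4741 (960 to 1328) and sac3∆ (1078 to 1376) overlapped, with a difference of −1.03 ± 0.19 (adjusted p = 0.00333). CCC2, the copper pump that loads the iron oxidase, was the only called member of 23 iron genes (0.77 ± 0.15, adjusted p = 0.00479). That is 4.35% of the list against 2.38% of all genes, and 5 of the list were called higher without sac3∆ replicate 3. The zinc transporter ZRT2 was the only called member of 13 zinc genes (−0.66 ± 0.19, adjusted p = 0.0235), which is 7.69% against 3.71% of all genes. The ZRT2 call was lost without BY4741 replicate 3, BY4742 replicate 1, sac3∆ replicate 2 or thp1∆ replicate 3 (−0.51 to −0.63). YBL028C, a nucleolar protein of unknown role, differed by −1.13 ± 0.35 (adjusted p = 0.0327), with BY4741 values between 822 and 2091 units, and lost its call when any array of BY4742 or thp1∆, or sac3∆ replicate 1 or 2, was left out (adjusted p = 0.0549 to 0.0734).

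Lists close to the function of TREX-2 held no called difference with all arrays in the fit. The mRNA export list had 25 tested genes with no call and a median of −0.01, and for 21 of them the 95% interval lay within 1.5-fold. Without BY4741 replicate 1, sac3∆ replicate 3 or thp1∆ replicate 1, this list had 1 gene called lower. The 17 tested SAGA genes had no call and a median of 0.02, with 12 intervals within 1.5-fold. Splicing and 3′ processing (69 genes, median −0.01) and chromosome segregation (53 genes, median 0.04) had none either. Yet 19 segregation genes (35.8%) were called up in thp1∆ and 16 (30.2%) in sac3∆, against 10.7% and 6.25% of all genes. The 25 ergosterol genes, the 34 genes of cell wall integrity and the 8 histone genes also held no called difference. Of the other TREX-2 subunits, CDC31 was higher than wild type by 0.84 in thp1∆ and 0.61 in sac3∆, with a difference of 0.22 ± 0.12 (adjusted p = 0.212). SUS1 differed by 0.35 ± 0.19 (adjusted p = 0.219) and SEM1 by 0.44 ± 0.09 (adjusted p = 0.00451), below the fold.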

How the data were processed

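The authors computed intensity values with dChip (invariant-set normalisation, with expression modelled on perfect-match probes) and deposited them on a linear scale in arbitrary units, with outliers left empty. Its version was not stated. From the deposited intensity values, log2 was taken without further scaling. The 5900 probe sets gave 5449 genes (the highest probe set for 47 genes), named through the platform table and RefSeq R64. Genes under 600 units in at least 50% of the 12 arrays were removed. One model with 5 strains was fitted to 15 arrays, sus1∆ included for the spread only, with limma 3.58.1 in R 4.3.3, and p-values were adjusted by Benjamini-Hochberg over 4329 genes. Calls needed an adjusted p below 0.05 and a fold of 1.5, and single responses a difference above 100 units besides. The number of arrays limits the precision. Replicates are biological per the labels, and separate cultures are not stated, so p-values reflect the spread between the arrays. Named genes were the 12 largest differences in each direction, opposite calls, RT-qPCR genes, up to 4 called genes per list, and regulators. Genes and lists were chosen with earlier results of these data known, and other genes named were chosen after their values were seen. The fit was tested on simulated data. A gene had the same spread in every strain there, so the test does not cover the unequal spread of the real strains. The alternatives were other scalings, filters, weights, probe set rules and left-out arrays. Promoter sequences were not used here.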

Additional observations from a re-analysis of the deposited data

Results flagged for a closer look

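The 2 responses differed, by the test of the difference itself (limma), for 95 genes in the higher and 148 in the lower direction. The 2 genes called in opposite directions in the mutants were PDR15, with a difference of 1.72, and YDL241W, with −1.44. Probe sets with no assigned gene, 218 in all, were used in no comparison above. Of the 145 that passed the filter, 9 were called higher and 5 lower.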

How the results depend on the processing

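The precision of the difference was limited by BY4741, whose arrays had a median SD across genes of 0.139 on the log2 scale against 0.0487 in BY4742. As reported, 95 genes were called higher and 148 lower. Over the fits without 1 array these counts ran from 76 to 193 and from 125 to 262. The highest counts came without BY4741 replicate 1 (193 and 262) and without sac3∆ replicate 3 (152 and 236). Of the 243 calls, 118 (48 higher, 70 lower) were kept in each of these 12 fits, and no called gene turned its sign under any setting. With only the 12 arrays of the comparison in the fit, 80 genes were called higher and 130 lower, and 210 of the 243 calls were kept. Array weights per strain gave 94 higher and 141 lower. With no filter on low values 159 genes were called higher. Without sac3∆ replicate 3 and thp1∆ replicate 3, the arrays with the highest SRB4 ratios, an alternative chosen after seeing the data, 144 were.

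Equal array medians shifted the median gene by −0.12 in each response and by −0.01 in their difference. The calls down were then 464 in thp1∆ and 250 in sac3∆, beside 290 and 166 up. Under quantile normalisation they were 442 and 229 down, beside 294 and 176 up. With no filter 241 genes were down in sac3∆. Over the fits without 1 array, thp1∆ had 410 to 459 genes up and 269 to 320 down, and sac3∆ 199 to 328 up and 134 to 193 down. List medians of a single response near 0 changed sign under a scaling, in thp1∆ for mRNA export, histones, hexose transport and splicing, and in sac3∆ for mRNA export, SAGA, TREX-2, hexose transport, citrate cycle, respiratory chain and cell wall. The median difference of the lists did not, other than M/G1 (0.032, then −0.032 under quantile normalisation) and ergosterol.

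The difference of 3 uncalled regulators reversed. SWI4 (0.02) gave −0.011 with equal medians, −0.095 without sac3∆ replicate 3 and thp1∆ replicate 3, and −0.16 to 0.20 without 1 array. MSN2 (0.08) gave −0.025 without sac3∆ replicate 3, −0.023 with thp1∆ replicate 3 left out too, and up to 0.16 without another array. MSN4 (−0.11) gave 0.070 without BY4741 replicate 1 and down to −0.29 without another array. The cause was not tested.

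The replicate block gave 91 genes higher and 153 lower. The numbers were not taken to pair the samples, since same-numbered arrays of different strains correlated at −0.233 to 0.438 and only 4 of 12 arrays matched best with their own number.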
